A study of Mus musculus with 8 samples.

Results

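The 82 genes described here are the nuclear genes for subunits of oxidative phosphorylation, out of 20726 nuclear genes listed in the deposited files. They were chosen by symbol: every row on a nuclear chromosome that begins with Nduf, Sdh followed by a to d, Uqcr, Cox4 to Cox8 or Atp5, without the assembly factors named Ndufaf or Sdhaf. By complex they number 35 for complex I, 4 for complex II, 8 for complex III, 18 for complex IV and 15 for complex V. The other 2, Atp5s and Atp5sl, carry the name but are not core subunits of the ATP synthase. Ndufa4 was placed with complex IV, where the protein is now known to sit. Of the 82, 79 are listed in both kinds of deposited file, and 76 passed the filter on low counts for tests between BMP4 conditions. Cox4i2, Cox8b and Cox8c each appear in 1 file only, with 1 or 2 transcripts in a single well.

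Oxidative phosphorylation makes most of the ATP of a resting cell at the inner mitochondrial membrane. Complex I and complex II pass electrons from NADH and succinate to ubiquinone, complex III passes them to cytochrome c, complex IV hands them to oxygen, and complex V, the ATP synthase, uses the proton gradient built on the way. Most subunits are encoded in the nucleus and imported, while a few central ones of complexes I, III, IV and V are made from mitochondrial DNA, so that both genomes must supply the parts. In hormone-secreting cells of the gut, ATP is known to link nutrient sensing to membrane potential through ATP-sensitive potassium channels.

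Cells were sorted one by one from C57BL/6 mouse intestinal organoids of 3 hormone reporter lines, each well of a 384-well plate receiving one reporter-positive cell. The reporters are meant to mark enteroendocrine cells, hormone-secreting cells of the gut lining, but the label alone does not set a cell's type. The lines report Tac1 (substance P precursor, marking serotonin-making enterochromaffin cells), Gcg (proglucagon, of L cells) and Gip (of K cells). By their titles the Tac1 and Gip reporters are Cre lines, whose label can outlast the activity of the marked gene, and the Gcg reporter is a Venus line. The same agent was used throughout, the secreted ligand BMP4, for 24 h or 4 days, with untreated cells as the control. On 5 plates (Tac1 plates 1 and 2, Gcg plates 1 and 2 and the Gip plate) all 3 conditions lie side by side. A further 3 Tac1 plates hold a single condition each, 1 labelled 24 h and 2 labelled 4 days. The labels give neither the dose of BMP4 nor which plates share an organoid culture, so the p-values rest on plate-to-plate spread alone, some of which may be technical. Conditions occupy fixed columns of a plate, so condition and plate column cannot be told apart.

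Of 3072 wells, 1006 held at least 2000 transcripts and were kept, and kept cells were summed per plate and condition. The sums with at least 10 cells hold 98166 to 1251850 transcripts, and levels are given in CPM, the transcripts of a gene per 1000000 of the sum. Each transcript is tagged once near its 3′ end, so CPM is not scaled by transcript length. The summed level of 8 BMP target genes was 0.0101 to 0.0261% of transcripts in untreated sums, 0.0958 to 0.150% at 24 h on the 5 plates and 0.0969 to 0.265% at 4 days. The Tac1 library labelled 24 h only goes against its label: it held 0.0187%, with Id3 at 0 CPM against 168 to 512 CPM in the other 24 h sums. It enters no test and is named below as the library labelled 24 h. The 12 enteroendocrine markers summed to 4.05 to 8.56% on Tac1 plates 1 and 2 and 0.601 to 1.37% on the Gcg and Gip plates. Files of the Tac1 plates and files of the Gcg and Gip plates are of different kinds (rounding, gene rows, presence of mitochondrial genes), so line and file kind cannot be told apart for Tac1 against the others. In a sum over cells, fewer cells of a type and less RNA per cell cannot be told apart, and a share of transcripts is not an absolute amount.

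Without BMP4 the members of complex V were the most abundant as a group and those of complex II the least. Complex V supplied on average 0.605% of transcripts over the 5 untreated sums, complex I 0.511%, complex IV 0.424%, complex III 0.205% and complex II 0.0480%. Over the sums of the 5 plates with at least 10 cells the highest single members were Cox8a, a small structural subunit of complex IV, at a mean of 685 CPM, and Atp5b, the catalytic beta subunit of the synthase, at 680 CPM. Atp5g3, which encodes the proton-carrying c ring of the synthase, followed at 602 CPM and Cox4i1, the largest nuclear subunit of complex IV, at 486 CPM. In complex III the highest were Uqcrq at 463 CPM and Uqcrh, the hinge protein, at 258 CPM. Complex I had no member of that height, with Ndufa6 at 307 CPM and Ndufa1 at 257 CPM, and complex II was led by its iron-sulfur subunit Sdhb (122 CPM) and its flavoprotein subunit Sdha (118 CPM).

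For the pairs Cox7a2 and Cox7a1 and Cox6b1 and Cox6b2 the broadly expressed form was the higher in each of the 18 sums. Cox7a2 had a mean of 163 CPM over the sums of the 5 plates, and the heart and muscle form Cox7a1 14.0 CPM, with 58.6 CPM beside 205 CPM of Cox7a2 on untreated Gcg plate 1. Cox6b1 had 287 CPM, while its testis form Cox6b2 was listed at 0 in all but 1 untreated sum, where it held 2.17 CPM, less than the 3 counts taken here as the floor. Cox6a1 stood at 404 CPM and Ndufa4 at 212 CPM. The 3 genes for the identical c ring protein of the synthase were all used: Atp5g1 had 344 CPM, Atp5g2 204 CPM and Atp5g3 602 CPM. Atp5g1 and Atp5g2 share 35.2 and 44.2% of the 75-base words of their transcript ends with other annotated genes, so their reads may be split, and Atp5g3 shares none. Among members with a mean of at least 20 CPM, the widest spread over the 5 untreated sums was that of Cox6a1, Cox7a2l and the Rieske iron-sulfur subunit Uqcrfs1.

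The summed share of the members was lower at 4 days than without BMP4 on 5 of 5 plates. Tac1 plate 1 held 1.89% in untreated cells, 1.68% after 24 h and 1.21% after 4 days. Tac1 plate 2 held 1.70% untreated and 1.06% after 4 days, and 1.80% in the 9 cells kept at 24 h. The Gcg plates had 2.07, 1.67 and 1.63% on plate 1 and 1.80, 1.81 and 1.32% on plate 2. On the Gip plate the 3 values were 1.52, 1.43 and 1.27%. Each 4 day value of the 5 plates lay below the untreated value of its own plate, but the 4 day value of Gcg plate 1 lay above the untreated value of the Gip plate, so the conditions overlap across lines. The difference was -0.501 ± 0.170 percentage points at 4 days (SD, n = 5 plates) and -0.175 ± 0.174 points at 24 h (SD, n = 4 plates, lower on 3 of 4). At 24 h it was -0.101 points without Gcg plate 1 and -0.109 points over cells with at least 10 granin transcripts. No test was run on this sum. The Tac1 plates labelled 4 days only had 1.47 and 1.43%, and the library labelled 24 h had 1.46%.

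**Figure D1:**
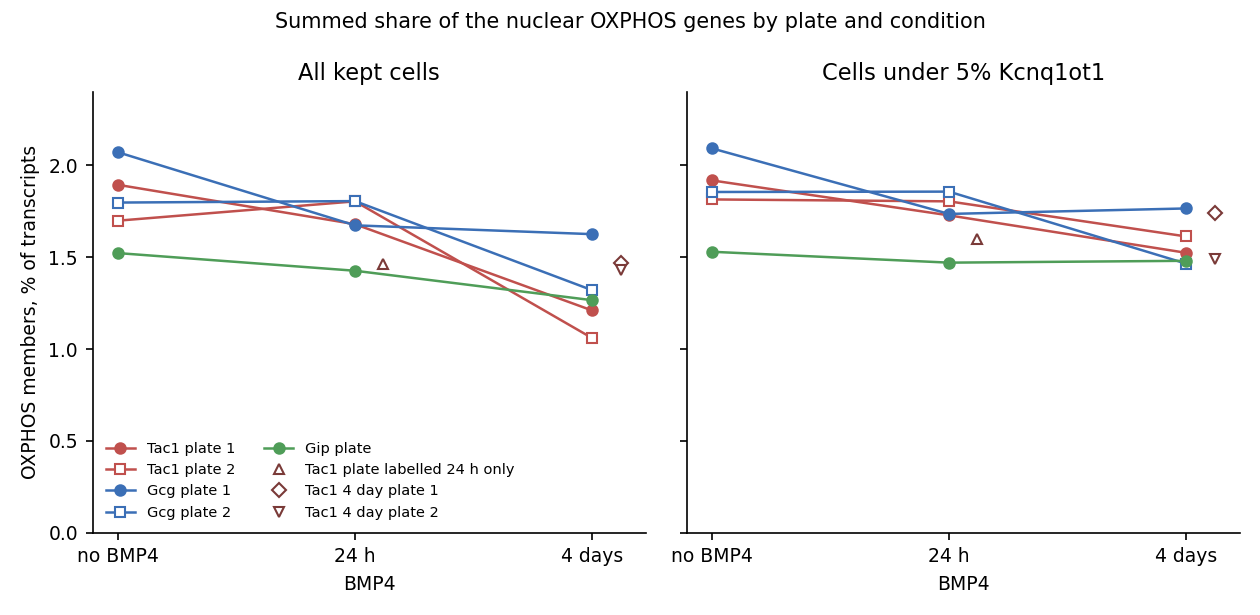
Share of all nuclear transcripts that came from the 79 members (vertical axis, percent) in each sum by BMP4 condition, over all kept cells (left) and over cells with under 5% Kcnq1ot1 transcripts (right). Lines join the sums of one plate, the 24 h point of Tac1 plate 2 rests on 9 cells, and the downward step at 4 days on 5 of 5 plates at left is smaller at right.

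Relative to the untreated sum of the same plate, the 4 day share had a mean change of -28.3% for complex I, -34.01% for complex II, -29.3% for complex III, -29.7% for complex IV and -24.8% for complex V, and each of the 5 was lower on 5 of 5 plates. Cytosolic ribosomal protein genes, another large group of abundant short transcripts, had a mean change of -28.5% (SD 6.92, n = 5 plates), lower on 5 of 5 plates as well. For the members together it was -27.7% (SD 9.04, n = 5 plates), so the 2 groups differed by less than the spread between plates. At 24 h the ribosomal protein genes were at -1.11% (SD 8.65) and the members at -9.10% (SD 8.29, n = 4 plates each).

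Summed markers of other cell types and of enteroendocrine cells differed in the same sums. The 12 enteroendocrine markers together changed by -34.1% at 4 days (SD 15.0, n = 5 plates), lower on 5 of 5 plates, with 0.762 to 8.56% of transcripts without BMP4 and 0.601 to 4.57% at 4 days. Of the 12, 1 was called (edgeR, 4 days against none): Rfx6, an endocrine transcription factor, fell by 1.05 ± 0.24 on the log2 scale (SE; adjusted p = 0.024). The 7 goblet markers summed to 0.199 to 1.27% without BMP4 and 0.210 to 2.45% at 4 days, higher on 4 of 5 plates, with a mean change of 124% (SD 207). Among them Clca1 and Zg16 rose and Spink4 fell (adjusted p = 8.2e-05, 0.019 and 0.0034), while Muc2, the gel-forming mucin, was at 0.16 (adjusted p = 0.94). Of the 10 sums compared, Clca1 was at 0 in 6, Muc2 in 2 and Zg16 in 2. The 10 enterocyte markers changed by 4.13% (SD 54.4), lower on 2 of 5 plates, and 1 was called, Apoc3, which rose (adjusted p = 0.0498). The part of these cell types in the members' lower share was not tested.

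A nuclear RNA moved the other way in the same sums. Kcnq1ot1, a long antisense RNA that stays in the nucleus, made up 0.398 to 2.16% of transcripts in the untreated sums of the 5 plates and 2.61 to 9.96% in their 4 day sums, higher on 5 of 5 plates. It belongs to a list of 5 RNA quality genes, with Malat1, Neat1, Meg3 and Gm26917. At 4 days over all plates 4 of them were tested and 1 was called higher (edgeR), against 2.41% of all genes. The median of the 4 was -0.20 and 2 lay below 0, so the list did not move to one side. Kcnq1ot1 was uneven between cells: at 4 days 25 to 43.8% of the kept cells held at least 5% Kcnq1ot1, against 1.59 to 20.3% without BMP4. In those cells at 4 days the members made up 0.0866 to 0.732% of transcripts, and in the other 4 day cells of the same plates 1.47 to 1.77%. Without BMP4 the 13 such cells of Gcg plate 1 were not as low, at 1.91% against 2.09% in the other cells of that sum. Within the 18 sums the correlation across cells of the member share with the Kcnq1ot1 share ran from -0.91 to -0.01, with a median of -0.62. It is a description, since both are shares of one cell's total. The correlation of the member share with the log of depth had a median of 0.19. Over cells under 5% Kcnq1ot1 alone, the 4 day difference was -0.290 ± 0.164 points (SD, n = 4 plates with at least 10 such cells, lower on 4 of 4). Over all cells of the same 4 plates, without Tac1 plate 2, it was -0.466 ± 0.175 points, and over all 5 plates -0.501 points. The largest gap to the untreated sum was then on Tac1 plate 1 (1.92 to 1.52%) and Gcg plate 2 (1.86 to 1.47%), and the smallest on the Gip plate (1.53 to 1.48%).

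**Figure D2:**
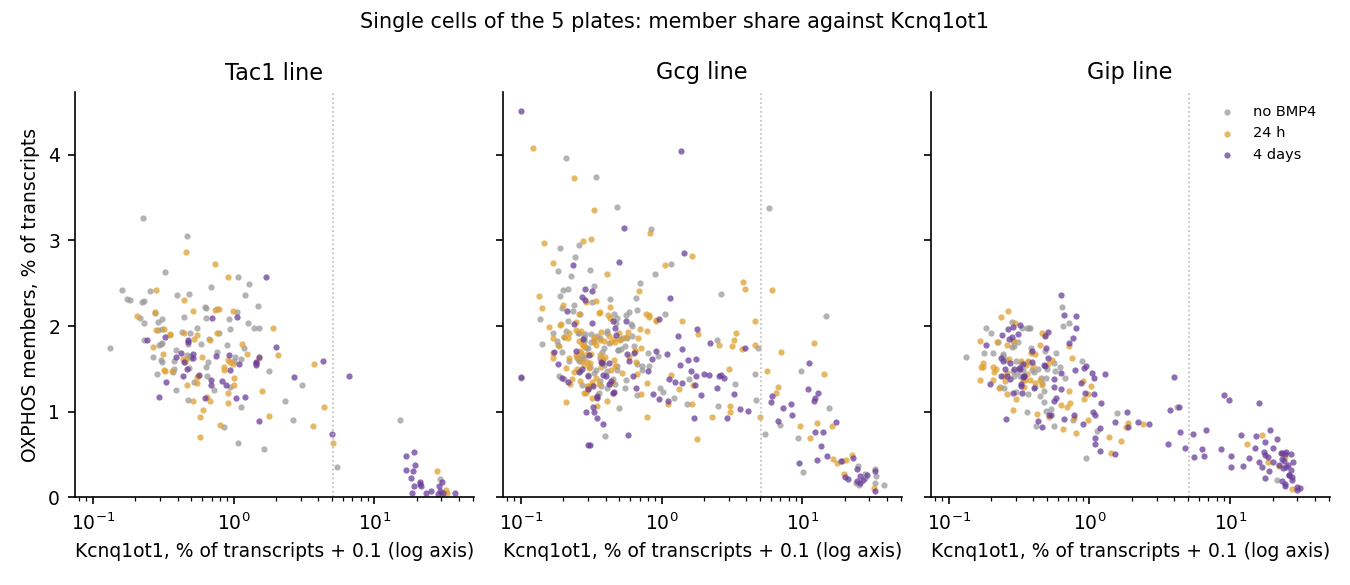
Each point is 1 kept cell of the 5 plates: its share of transcripts from the members (vertical axis, percent) against its share from Kcnq1ot1 (horizontal log axis, percent plus 0.1), coloured by BMP4 condition, with a dotted line at the 5% limit. Past that limit lie 101 cells of 4 day wells, 26 of 24 h wells and 23 untreated ones, and the 4 day cells there hold 0.0866 to 0.732% member transcripts when summed by plate.

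Gene by gene, BMP4 for 24 h gave no call. With edgeR's quasi-likelihood test over 8308 genes and Benjamini-Hochberg adjustment (called under 0.05), 0 of 76 members passed, with 0.0963% of all genes called. The unadjusted p of edgeR was under 0.05 for 0 members, and DESeq2 called 0. The median member was at -0.12 on the log2 scale against 0.00 for all genes, and 61 of 76 lay below 0. It was at -0.05 without Gcg plate 1, with 47 below 0, and at -0.21 without Gcg plate 2. In 12 of 76 members the CPM was lower on 4 of 4 plates, against 7.02% of all genes, and in 0 it was higher on 4 of 4, against 5.55%. On the Gcg plates alone 0 of 76 passed at 24 h (edgeR, 0 at an unadjusted p under 0.05, 0 by DESeq2; 0.0722% of all genes called).

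At 4 days against none 1 of 76 members passed, Uqcr11, a small subunit of complex III, and it fell; 3.33% of all genes were called, 2.41% higher and 0.927% lower. Yet the members lay to one side: 68 of 76 were below 0, the median was -0.28 against -0.00 for all genes, and 46 of 76 had a lower CPM on 5 of 5 plates, against 13.6% of all genes. No member was higher on 5 of 5 plates, against 4.07% of all genes. With an unadjusted p under 0.05 there were 18 members, all 18 lower, and DESeq2 called 1. The medians by complex were -0.28 for complex I (32 of 35 below 0), -0.41 for complex II (3 of 4), -0.32 for complex III (7 of 8), -0.24 for complex IV (12 of 12) and -0.22 for complex V (12 of 15). Against 24 h rather than none, 0 of 76 passed at 4 days (edgeR, 2 at an unadjusted p under 0.05, 0 by DESeq2; 0.397% of all genes called, 0.301% higher and 0.0963% lower), with a median of -0.17. This median was -0.29 without Gcg plate 1, -0.10 without Gcg plate 2 and -0.11 without Tac1 plate 1. These comparisons share sums and are not independent of each other. Scaling by library size without TMM moved the median of all genes at 4 days to -0.16 and that of the members to -0.44, with 73 of 76 below 0 and 4 called lower (Uqcr11, Cox7a2l, Cox7b and Atp5e). Of all genes 307 of 8308 were called either way in that setting.

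**Figure D3:**
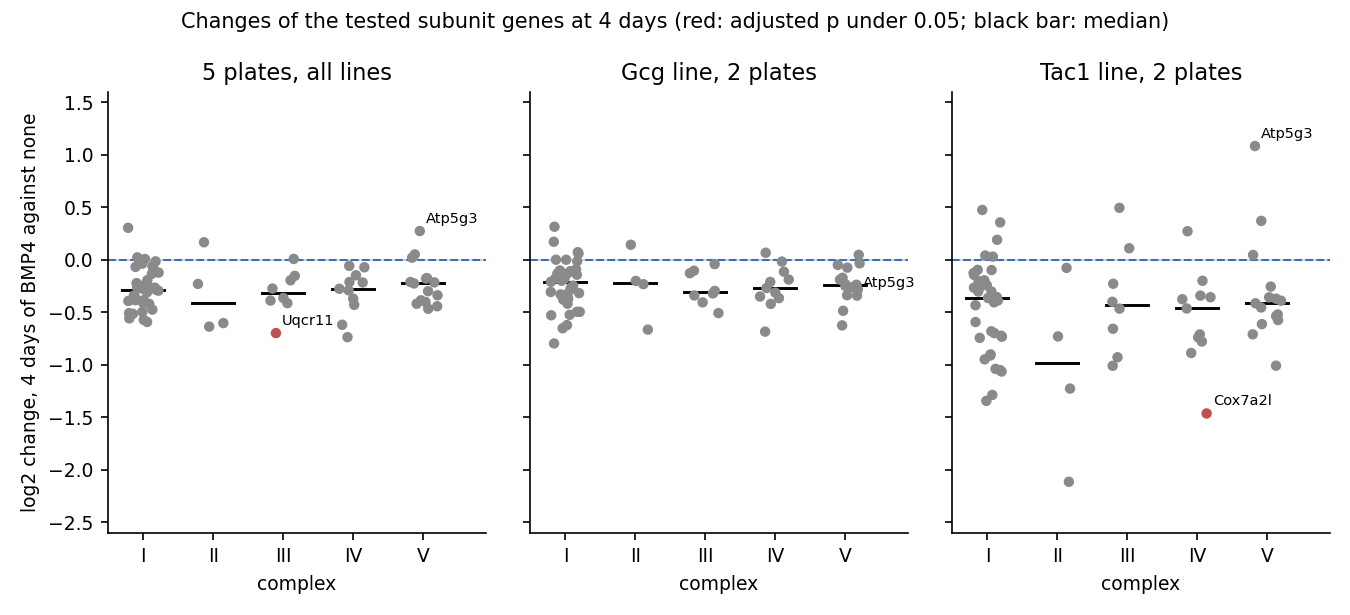
Fitted log2 change at 4 days of BMP4 against none (vertical axis) for each tested subunit gene by complex (horizontal axis), over 5 plates and within the Gcg and Tac1 lines, without Cox7c, which holds 0 or 1 transcript in the Gcg sums. Red points passed at an adjusted p under 0.05, black bars are medians and the dashed line is the median of all genes; the medians of all 5 complexes lie below it in each panel.

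The members the results turn on are Uqcr11, Cox7a2l and Atp5g3, and their promoters are shown because the tests and levels that follow rest on them. Each is the stretch of 250 bases just before the gene's start, in the direction of transcription, from RefSeq on GRCm38.p6, with the motif CCGGAAGT of ETS-family factors in capitals where found on either strand.
Uqcr11, chr10:80406822-80407071, minus strand: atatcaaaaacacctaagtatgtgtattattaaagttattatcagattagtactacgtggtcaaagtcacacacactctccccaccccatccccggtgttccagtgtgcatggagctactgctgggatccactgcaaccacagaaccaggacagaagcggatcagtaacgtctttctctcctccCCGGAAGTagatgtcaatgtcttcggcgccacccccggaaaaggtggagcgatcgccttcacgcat
Cox7a2l, chr17:83514334-83514583, minus strand: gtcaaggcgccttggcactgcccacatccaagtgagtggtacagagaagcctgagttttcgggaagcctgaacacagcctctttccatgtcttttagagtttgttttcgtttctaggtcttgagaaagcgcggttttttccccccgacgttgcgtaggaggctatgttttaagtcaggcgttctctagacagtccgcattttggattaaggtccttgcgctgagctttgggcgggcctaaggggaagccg
Atp5g3, chr2:73911327-73911576, minus strand: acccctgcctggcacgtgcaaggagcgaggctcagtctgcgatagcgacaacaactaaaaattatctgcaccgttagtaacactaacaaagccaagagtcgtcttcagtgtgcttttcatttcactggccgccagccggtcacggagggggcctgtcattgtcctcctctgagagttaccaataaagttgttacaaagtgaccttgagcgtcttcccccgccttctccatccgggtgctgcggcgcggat

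Over windows of 250 bases before to 50 after the start, 66 of the 82 members matched a RefSeq promoter by symbol, giving 71 windows. The motif of NRF1, a known activator of respiratory genes, lay in 23.9% of them on either strand, against 4.60% of all 32851 windows. The motif AAGATGGC of YY1 lay in 12.7% of member windows against 2.75%, and CCGGAAGT in 7.04% against 3.89%. A window with several motifs counts for each. Of the 3 genes printed, Uqcr11 holds the ETS motif, Atp5g3 an NRF1 motif after its start, outside the stretch shown, and Cox7a2l none of the 3 motifs in its window. A match is a stretch of letters, and binding was not measured.

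Uqcr11 lies on chromosome 10 (GENCODE M21 on GRCm38, 80402997 to 80406830, minus strand), and the RefSeq start used above differs from it by a few bases. It stood at 288 CPM without BMP4 and 108 CPM at 4 days on Tac1 plate 1, and at 278 and 133 CPM on Tac1 plate 2. Gcg plate 1 held 204 and 125 CPM and Gcg plate 2 176.9 and 116 CPM, and the Gip plate held 139 and 83.4 CPM. The 5 values at 4 days all lay under the 5 untreated ones. The fit gave -0.70 ± 0.17 on the log2 scale (SE, n = 5 plates; edgeR adjusted p = 0.040). The call rests on every plate: the adjusted p was 0.22 without Tac1 plate 1, 0.073 without Tac1 plate 2, 0.069 and 0.083 without Gcg plates 1 and 2, 0.16 when the Gip plate was left out, and 0.18 over cells under 5% Kcnq1ot1, at -0.59. At 24 h it had 208 CPM on Tac1 plate 1, 161 and 157 CPM on the Gcg plates and 103 CPM on the Gip plate, each between the other 2 values of its plate. Of the plates labelled 4 days only, one held 122 CPM and the other 236 CPM, the second inside the untreated range. Of the 75-base words of its transcript end 3.2% also occur in another annotated gene.

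Cox7a2l encodes a relative of the complex IV subunit Cox7a2 that is known to join complexes III and IV into supercomplexes and that C57BL/6 mice carry in a shortened form; the gene lies on chromosome 17 (83501918 to 83517330, minus strand), and the RefSeq start used above lies inside that span. Without BMP4 it held 823 and 855 CPM on Tac1 plates 1 and 2, the highest of any member on plate 2 but for Cox8a. At 24 h it was at 743 CPM on plate 1, and at 511 CPM in the 9 cells of plate 2. At 4 days the levels were 236 and 276 CPM, and the plates labelled 4 days only had 265 and 114 CPM. Every 4 day sum of the line lay under every other sum of the line, including the library labelled 24 h at 327.1 CPM. On the Gcg plates the values were 217, 245 and 145 CPM on plate 1 and 178, 199.9 and 122 CPM on plate 2, and the Gip plate had 264, 251 and 221 CPM.

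Within the Tac1 line Cox7a2l fell by 1.46 ± 0.29 on the log2 scale at 4 days (SE, n = 2 plates; edgeR adjusted p = 0.040), the only call among 76 members, with 2.01% of all genes called, 1.46% higher and 0.554% lower. With any of the 5 plates left out the change ran from -1.63 to -1.29. Over cells under 5% Kcnq1ot1 it was -1.58, but Tac1 plate 2 had too few cells for a sum. That fit, and those without a Tac1 plate, rest on 1 Tac1 plate and cannot show whether the call holds. In the Gcg line Cox7a2l was at -0.42 (adjusted p = 0.86), and the difference between the lines, 1.04 ± 0.41, did not pass (adjusted p = 0.54). Over all 5 plates it was at -0.74 ± 0.22 (adjusted p = 0.10). Of the 76 members 0 differed between the Gcg and Tac1 lines in their 4 day change (edgeR, 5 at an unadjusted p under 0.05, 0 by DESeq2; 0.0% of all genes called), and in the Gcg line 0 passed at 4 days (edgeR, 0 at an unadjusted p under 0.05, 0 by DESeq2; 0.277% of all genes called, 0.193% higher and 0.0843% lower).

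On the Tac1 plates the Cox7a2l level went with Tph1, the gene for the rate-limiting enzyme of serotonin synthesis. Cells with at least 3 Tph1 transcripts held 963 and 977 CPM of Cox7a2l without BMP4 on plates 1 and 2 (47 and 9 cells, median depth 7218 and 6730 transcripts). Cells with fewer held 363 and 346 CPM (21 and 7 cells, median depth 4887 and 2726). At 4 days the Tph1 cells held 282 and 430 CPM (25 and 8 cells), so the lower level was also seen within them. The limit of 3 was chosen after the data were seen, and 40 of 163 cells of plate 1 and 10 of 41 of plate 2 lie within 1 transcript of it. On the Gcg plates 5 of 229 and 2 of 182 kept cells reached the limit, and on the Gip plate 1 of 268.

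Atp5g3 was the member that stood farthest on the other side in the Tac1 line. It lies on chromosome 2 (73908447 to 73911326, minus strand) and encodes one of the c ring precursors of the ATP synthase. On Tac1 plate 1 it had 566 CPM without BMP4, 529 CPM at 24 h and 962 CPM at 4 days, and on plate 2 the levels were 441, 409 and 829.4 CPM, the second from 9 cells. The plates labelled 4 days only held 1234 and 1091 CPM and the library labelled 24 h 540 CPM, so the 4 sums at 4 days all lay above the 5 other sums of the line. The Gcg plates did not share this: 925, 499 and 706 CPM on plate 1 and 615, 628 and 395 CPM on plate 2, and the Gip plate 455, 476 and 406 CPM.

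The Tac1 line fit of Atp5g3 was 1.09 ± 0.38 on the log2 scale and did not pass (SE, n = 2 plates; edgeR adjusted p = 0.23). Without Gcg plate 1, which enters the shared estimate of spread, it passed at 1.07 (adjusted p = 0.017), and over cells with at least 10 granin transcripts at 1.12 (adjusted p = 0.0016). More genes of any kind were called in these settings, 419 of 7856 and 485 of 7124, against 167 of 8308 in the main fit. These passes are therefore not read as a result about Atp5g3. The difference from the Gcg line, -1.43 ± 0.53, did not pass (adjusted p = 0.51). In cells under 5% Kcnq1ot1 the levels were 573 and 1270 CPM on Tac1 plate 1 and 475.5 and 1286 CPM on Tac1 plate 2, without BMP4 and at 4 days. Among the transcripts of the 3 c ring genes, Atp5g3 made up 54.5 and 52.9% without BMP4 and 72.5 and 77.03% at 4 days on the Tac1 plates. The share of Atp5g1 was 30.9 and 35.6% without BMP4 and 14.1% at 4 days on both. The share of Atp5g3 without BMP4 and at 4 days was 58.3 and 59.6% for Gcg plate 1, 49.6 and 43.6% for Gcg plate 2 and 37.1 and 39.1% for the Gip plate. Both Tac1 plates thus held more Atp5g3 and less Atp5g1 of this sum at 4 days, and the plates labelled 4 days only had 75.6 and 71.1% Atp5g3.

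**Figure D4:**
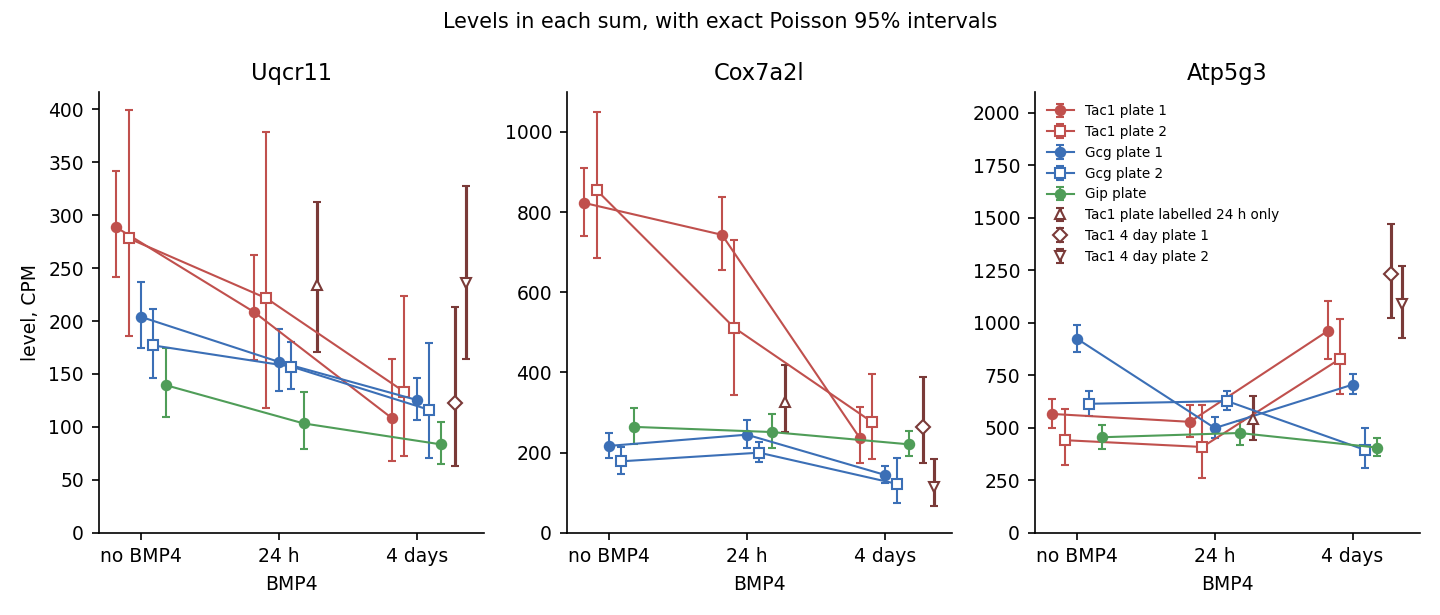
Level in CPM (vertical axis, from 0) of Uqcr11, Cox7a2l and Atp5g3 in each sum by BMP4 condition, with exact Poisson 95% intervals that cover counting error only. Lines join sums of one plate; Cox7a2l drops to 236 and 276 CPM and Atp5g3 reaches 962 and 829.4 CPM at 4 days on the Tac1 plates.

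Other members stood low in the Tac1 line at 4 days without passing. Sdhb was at -2.11 ± 0.64 (adjusted p = 0.16), from 115 to 34.5 CPM on plate 1 and from 86.3 CPM to 0 on plate 2, where 3 counts are 28.5 CPM, so that its fitted value depends on the prior count. Complex I subunits Ndufc2 and Ndufb8 were at -1.34 and -1.29 (adjusted p = 0.14 and 0.15), and the coupling factor gene Atp5j of the synthase was at -1.01 (adjusted p = 0.19). Over cells with at least 10 granin transcripts, 5 of 76 members passed as lower in this line, these 4 and Cox7a2l. More genes of any kind were called there, 485 of 7124 against 167 of 8308 in the main fit. The 5 calls are therefore not read as a result about the members. The median member was at -0.42 in the Tac1 line and at -0.24 in the Gcg line.

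The 13 subunits made from mitochondrial DNA could be read on the Tac1 plates only. Their transcripts per 100 nuclear ones numbered 4.15 in untreated cells of plate 1, 4.79 after 24 h and 3.91 after 4 days, and 3.72 and 3.08 in the untreated and 4 day cells of plate 2. Per transcript of a nuclear member there were 2.19 mitochondrial ones without BMP4 on either plate, and 3.23 and 2.90 at 4 days. At 24 h the ratio was 2.85 on plate 1 and 3.24 in the 9 cells of plate 2, and it was 3.94 and 5.49 on the plates labelled 4 days only and 3.16 in the library labelled 24 h. Both untreated sums lay under the 7 others. One of the 7 is the library labelled 24 h, whose BMP target level lay in the untreated range, so a higher ratio was also seen without that response. Over cells under 5% Kcnq1ot1 the ratios were 2.17 and 2.12 without BMP4 and 2.90 and 2.52 at 4 days, the last from 9 cells. No test was run, and the Gcg and Gip plates were not analysed here.

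Other genes around the chain mostly did not pass. At 4 days over all plates, 1 of 32 tested assembly factors rose: Acad9, a complex I assembly factor related to acyl-CoA dehydrogenases, by 1.74 ± 0.32 (edgeR adjusted p = 0.0073). Tac1 plate 1 held 182 CPM untreated and 898 CPM at 4 days, and Tac1 plate 2 249 and 1497 CPM, against 76.1 and 87.9, 65.4 and 163, and 34.9 and 84.6 CPM on the Gcg and Gip plates. Over cells under 5% Kcnq1ot1 it was at 0.15 and did not pass (adjusted p = 0.89), and without Tac1 plate 1 it was at 1.47 (adjusted p = 0.069). Among 21 carriers and pores Ucp2, an uncoupling protein, rose by 0.83 ± 0.18 (adjusted p = 0.016). Its call ended without Gcg plate 2 (0.053), the Gip plate (0.11) or Tac1 plate 1 (0.11). Of 9 other subunits and electron carriers, 10 regulators of mitochondrial biogenesis, 20 genes of the TCA cycle and pyruvate dehydrogenase and 18 of glycolysis, 0 passed in the pooled 4 day fit of edgeR (1, 0, 4 and 2 at an unadjusted p under 0.05, and 0 in each by DESeq2). Their medians were -0.21, -0.06, -0.10 and 0.02, beside -0.28 for the members. In the Tac1 line Cyc1, the cytochrome c1 subunit of complex III, fell by 1.97 ± 0.40 (adjusted p = 0.043), with 364 CPM untreated and 103 CPM at 4 days on plate 1, and 518 and 76.1 CPM on plate 2. With any of the 5 plates left out its change ran from -2.43 to -1.64. The fits without a Tac1 plate and over cells under 5% Kcnq1ot1 rest on 1 Tac1 plate. They cannot show whether the call of Cyc1 holds.

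Without BMP4, 9 of 77 tested members passed between the Gcg and the Tac1 line (edgeR, 9168 genes; n = 2 plates each), 6 higher and 3 lower in Gcg, against 16.4% of all genes called (8.79% higher and 7.66% lower). That share, 9 of 77, is below the background. The median member was at 0.06 and that of all genes at 0.09, and the members' median changed sign with single plates, being -0.11 without Gcg plate 1, -0.08 without Tac1 plate 2, 0.14 without Gcg plate 2 and 0.21 without Tac1 plate 1. Enterocyte and goblet markers moved with the line: 9 of 10 and 5 of 7 passed as higher in Gcg, with enterocyte markers at 2.31 to 2.91% of transcripts on the untreated Gcg plates and 0.114 to 0.199% on Tac1. Their part in the differences below was not tested.

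Higher in the Gcg line were members of all 5 complexes. Atp5f1, the stator b subunit of the synthase, had 295 and 249.8 CPM on Gcg plates 1 and 2 against 78.1 and 76.7 CPM on the Tac1 plates, higher by 1.79 ± 0.38 (adjusted p = 0.0011). Of the 75-base words of its transcript end 19.4% occur in another annotated gene. Cox6a1, a regulatory subunit of complex IV, had 825 and 564 CPM against 312 and 144 CPM, at 1.498 ± 0.41 (adjusted p = 0.010). Sdhd, a membrane anchor of complex II, had 251 and 172 CPM against 80.2 and 57.5 CPM, at 1.51 ± 0.39 (adjusted p = 0.0066). Cox6b1, Ndufb4 and the complex III core subunit Uqcrc2 also passed, at 1.14, 1.12 and 1.12 (adjusted p = 0.034, 0.037 and 0.044). For each of the genes named in this paragraph the untreated Gcg and Tac1 plates do not overlap. With 2 plates in each line this nearly follows from having been called, so it adds nothing to the calls. How often it holds over all genes was not counted. The Gip plate, whose file is of the same kind as those of Gcg, had 158 CPM of Atp5f1, 389 CPM of Cox6a1 and 108 CPM of Sdhd, each between the 2 lines.

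Lower in the Gcg line were Cox7a2l, at -2.07 ± 0.36 (adjusted p = 1.4e-04), Ndufa7, a supernumerary subunit of complex I, at -1.47 ± 0.37 (adjusted p = 0.0062), and Cox7c, a small subunit of complex IV. Ndufa7 had 48.0 and 77.3 CPM on the Gcg plates, 184 and 144 CPM on the Tac1 plates and 53.2 CPM on the Gip plate. For Cox7c the files give 1 transcript over the 9 sums of the Gcg and Gip plates, and 2 to 25 in each of the 9 Tac1 sums (19.0 to 122 CPM). In the 2 untreated Gcg sums it was at 0, which allows up to 3.51 and 4.46 CPM at the floor of 3 counts, against 39.0 and 28.8 CPM untreated on Tac1. Of the 75-base words of its transcript end 26.4% occur in 2 other genes. Gapdh, the glycolytic enzyme, had a like pattern, 15.5 to 52.3 CPM over the Gcg and Gip sums and 219 to 525 CPM over the Tac1 sums. For such genes the line and the kind of file cannot be told apart.

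**Figure D5:**
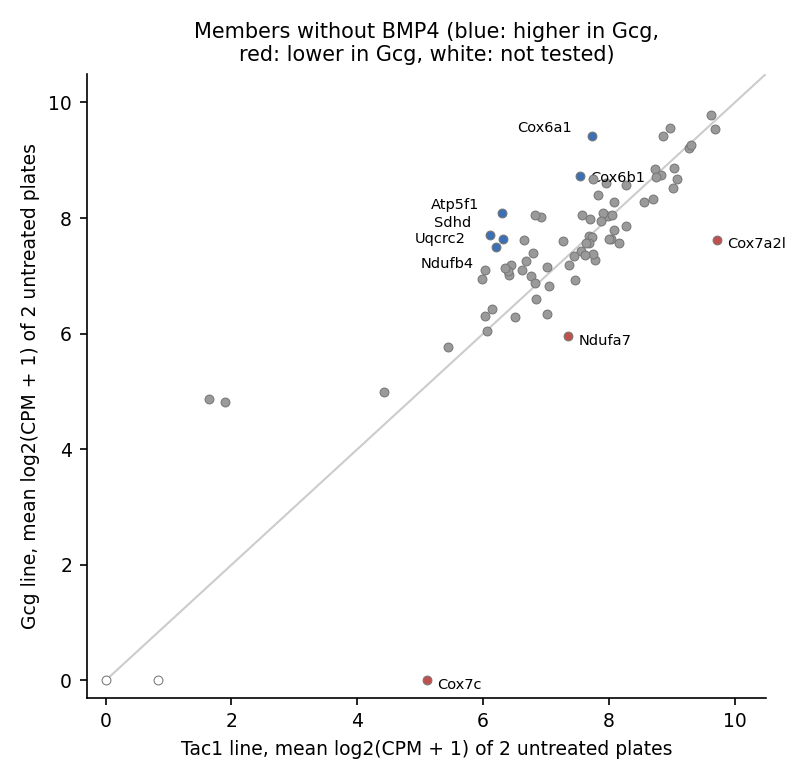
Level of each member without BMP4, as the mean of log2(CPM + 1) over 2 plates, in the Tac1 line (horizontal axis) and the Gcg line (vertical axis), with the diagonal of equal levels. Blue members passed as higher in Gcg and red ones as lower; Cox7a2l and Cox7c lie farthest under the diagonal among those that passed.

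The calls between untreated lines leaned on single plates. Atp5f1 and Cox7a2l passed whichever of the 5 plates was left out. Without Gcg plate 1 the adjusted p was 0.10 for Cox6a1, 0.35 for Cox6b1, 0.065 for Cox7c, 0.12 for Ndufa7, 0.15 for Ndufb4, 0.18 for Sdhd and 0.38 for Uqcrc2. Without Gcg plate 2 it was 0.052 for Cox7c and 0.17 for Ndufb4, and without Tac1 plate 1 0.15 for Ndufa7, while Cox7c was then not tested, since it did not pass the filter on low counts. Without Tac1 plate 2 it was 0.061 for Cox6a1, 0.11 for Cox6b1, 0.089 for Ndufb4 and 0.13 for Uqcrc2.

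At 4 days 5 of 73 tested members passed between the lines, 4 higher and 1 lower in Gcg, against 11.9% of all genes called, 6.06% higher and 5.87% lower (5926 genes, 2 Gcg and 4 Tac1 plates). Sdhb was higher by 2.4004 ± 0.59 (adjusted p = 0.011), with 171 and 128 CPM on the Gcg plates and 34.5, 0, 50.9 and 33.6 CPM on the Tac1 plates, and Sdhd by 2.04 ± 0.53 (adjusted p = 0.016). Both belong to complex II, and its other members, Sdha and Sdhc, did not pass. Atp5f1 was higher by 1.86 ± 0.52 and Cox6a1 by 1.23 ± 0.39 (adjusted p = 0.025 and 0.047), and Cox7c was lower. Cox7a2l, which had differed without BMP4, was at -0.68 at 4 days and did not pass (adjusted p = 0.40). Without Gcg plate 1 the 5 calls ended, with adjusted p from 0.26 for Sdhb to 0.45 for Cox6a1. Sdhb passed with any other plate left out. Further plates ended the calls of Sdhd (Tac1 plate 1, 0.067), of Atp5f1 (4 day plate 1, 0.061) and of Cox7c (Gcg plate 2, 0.074, and 4 day plate 1, 0.094), and Cox6a1 kept its call only without 4 day plate 1.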

How the data were processed

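Reporter-positive cells were processed with SORT-seq, a plate form of CEL-seq2, and sequenced as 75-base paired reads, per the labels' protocols. Reads were mapped to mm10 with BWA 0.6.2-r126, per the submitters' processing notes, and how transcripts were counted is not given in the sources used here. Deposited values of the authors are estimated transcript counts per gene and well (expected counts, corrected for repeated use of molecular identifiers): the labels name a 4-base identifier, but 100% of values convert to whole identifier counts with 4096 possible identifiers (tolerance 0.01). Files of Tac1 plates are rounded to 2 decimals.

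Of 20726 nuclear genes, the 16115 in both file kinds were used, and wells with at least 2000 transcripts were kept and summed per plate and condition. Sums with at least 10 cells were rounded and tested with edgeR 4.0.16 (filterByExpr, TMM, quasi-likelihood F test, Benjamini-Hochberg adjustment) with plate as a block within conditions, and with line as the term between lines. Conditions pair by plate, as the labels place them on 1 plate. Sums of a plate deviated together from the mean of their condition (r 0.36 to 0.73 in 13 of 13 pairs). Sums of a plate also share their line, which was not taken out, so this r cannot tell plate from line. The scripts were tested on simulated data. Doublets were not removed. Intervals (95%, exact Poisson) and the floor of 3 counts cover counting error only.

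Named members are all that passed between pooled conditions or lines, the 2 highest of each complex, isoform families and the 3 of widest untreated range. Uqcr11, Cox7a2l and Atp5g3 were described at length, and Sdhb, Ndufc2, Ndufb8 and Atp5j named in the Tac1 line, after their values were seen. Members and lists were chosen with earlier results of these data known. Alternatives covered normalization, DESeq2 1.42.0, filters, cell limits, granin cells and each plate left out. The alternatives without TMM and over cells under 5% Kcnq1ot1 were chosen after seeing the data.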

Additional observations from a re-analysis of the deposited data

Results flagged for a closer look

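Single values far from the rest of their condition were looked for in 98 groups of sums, and 5 were found, while chance alone gives about 1 in 20 groups. Cox4i1 without BMP4 stood at 398 CPM on the Gip plate against 574 to 623 CPM on the other plates. Cox6b2, the testis form of its subunit, held 2.17 CPM on untreated Tac1 plate 1 and was listed at 0 elsewhere without BMP4. Cox7a1, the muscle form, held 58.6 CPM on untreated Gcg plate 1 against 0 to 13.4 CPM. Cox7a2l at 24 h was at 743 CPM on Tac1 plate 1 against 199.9 to 327.1 CPM, where the highest of the others is the Tac1 library labelled 24 h. The rest of that group are Gcg and Gip sums. Tac1 plate 2, at 511 CPM in 9 cells, had too few cells to be in it. Uqcr11 at 4 days was at 236 CPM on the second plate labelled 4 days only, against 83.4 to 133 CPM.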

How the results depend on the processing

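Of the alternatives for counts of called members and for the share, 285 values kept their side and 44 moved; for single genes 423 kept their call, 87 lost it, 4 gained it and 0 reversed. The member called lower at 4 days over all plates went from 1 to 0 with at least 4000 transcripts per cell, with granin cells, with cells under 5% Kcnq1ot1 (also with sums of at least 5 cells) and with no replicate block, to 4 without TMM, and to 0 whichever plate was left out. In the Tac1 line at 4 days the lower count of 1 became 0 with sums of at least 5 cells, also with cells under 5% Kcnq1ot1 at that minimum. It became 5 with granin cells, 2 with no filter and up to 2 with a Gcg or the Gip plate left out. With at least 4000 transcripts, with cells under 5% Kcnq1ot1 at the main minimum and without a Tac1 plate, 1 Tac1 plate was left. Those fits cannot show whether a call holds. The higher count of 0 became 1 with granin cells and was up to 1 with a plate left out. Between untreated lines the 6 higher became 2 with DESeq2 and 1 with at least 4000 transcripts, and 1 to 7 with a plate left out, and the 3 lower became 1 to 3. The untreated fit with the title number as a replicate block gave 9 higher and 3 lower; these numbers are not stated to pair plates of different lines. Between lines at 4 days the 4 higher became 2 with DESeq2, 0 with at least 4000 transcripts, 0 with granin cells, 2 with cells under 5% Kcnq1ot1 and 0 to 4 with a plate left out. The 1 lower became 2 with at least 1000 transcripts, 0 with at least 4000, 0 with granin cells, 2 with cells under 5% Kcnq1ot1 and 0 to 2 with a plate left out. The 4 day difference of the share was -0.290 points over cells under 5% Kcnq1ot1, on 4 plates where all cells gave -0.466 points. It was -0.562 to -0.455 points with a plate left out, and that at 24 h ran from -0.236 to -0.101 points with a plate left out. Calls over all genes differed too. In the pooled 4 day fit they were 307 of 8308 without TMM and 13 of 8308 with no replicate block. They were 151 of 7970 there with at least 4000 transcripts and 79 of 8090 with cells under 5% Kcnq1ot1. In the Tac1 line they were 485 of 7124 with granin cells, 483 of 16095 with no filter and 419 of 7856 without Gcg plate 1. With sums of at least 5 cells they were 168 of 7840 there, and 52 of 7819 with cells under 5% Kcnq1ot1 at that minimum. Between untreated lines they were 680 of 9168 with DESeq2 and 1425 of 7701 with the replicate block. Between lines at 4 days they were 624 of 5926 with DESeq2, 460 of 5149 with cells under 5% Kcnq1ot1 and 288 of 5681 with granin cells. With at least 4000 transcripts they were 0 of 8137, so the counts of 0 members there say nothing about the members. The causes were not tested. Over 17 alternatives the adjusted p of Uqcr11 ran from 0.014 to 0.43. The change of Cox7a2l in the Tac1 line ran from -1.69 to -1.29 over 17 alternatives, some of which left 1 Tac1 plate. Depth sets the floor of 3 counts at 2.396 to 30.6 CPM in the sums tested.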
